A study of Homo sapiens with 22 samples.

Results

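SOX2, SOX21 and MYCN are 3 transcription factor genes of neural progenitors, followed here across established human glioblastoma cell lines. They were taken by name, as the genes whose identifiers map to these symbols, and are 3 of the 6825 genes with a row in either of 2 deposited tables. All 3 have a row in the first table, which holds 2221 genes in 8 lines (KNS-42, LN-229, SNU-1105, KALS-1, LN-18, T98G, U-138MG and U-87MG). MYCN alone has a row in the second, which holds 5383 genes in 3 lines (A-172, AM-38 and SNU-466), and SOX2 and SOX21 were not analysed in those lines. Poly(A) RNA was sequenced in 2 libraries per line, 22 in all, from untreated cells in serum. A-172, KNS-42, LN-18 and LN-229 grew in DMEM, AM-38, T98G, U-138MG and U-87MG in EMEM, and KALS-1, SNU-466 and SNU-1105 in RPMI. Serum was at 20% for AM-38 and at 10% for every other line. No genotype or treatment is labelled, each line is its own group, and a line and its medium cannot be told apart where the media differ.

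SOX2 is an HMG-box factor that keeps neural stem and progenitor cells undifferentiated, and in glioblastoma it is known as a factor of stem-like tumour cells. SOX21 belongs to a related branch of the SOX family, is expressed in overlapping domains of the developing brain, and is known to act mostly as a repressor that counters SOX2 and its relatives as cells differentiate. MYCN encodes N-Myc, which pairs with MAX to bind E-box DNA. It drives the growth and division of neural progenitors, and is amplified in some neural tumours.

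SOX2 (ENSG00000181449) is an intronless gene on chromosome 3, from 181711924 to 181714436 on the plus strand (GRCh38, GENCODE 29). SOX21 (ENSG00000125285), also intronless, is on chromosome 13 from 94709622 to 94712399 on the minus strand. MYCN (ENSG00000134323) is on chromosome 2 from 15940564 to 15947007 on the plus strand. The 250 bases before the RefSeq start of each gene (GRCh38.p14) are shown because the members were high in different sets of lines, so that the proximal promoters can be read side by side. The windows are chr3:181711675-181711924 for SOX2, chr13:94712546-94712795 for SOX21 (minus strand) and chr2:15940300-15940549 for MYCN, each written 5′ to 3′ toward the gene, with matches to the motifs searched in capitals.
SOX2: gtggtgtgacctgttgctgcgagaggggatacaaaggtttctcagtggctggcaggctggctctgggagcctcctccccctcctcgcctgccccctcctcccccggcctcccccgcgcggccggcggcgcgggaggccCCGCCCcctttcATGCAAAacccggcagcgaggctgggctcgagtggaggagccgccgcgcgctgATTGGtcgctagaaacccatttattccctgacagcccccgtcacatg
SOX21: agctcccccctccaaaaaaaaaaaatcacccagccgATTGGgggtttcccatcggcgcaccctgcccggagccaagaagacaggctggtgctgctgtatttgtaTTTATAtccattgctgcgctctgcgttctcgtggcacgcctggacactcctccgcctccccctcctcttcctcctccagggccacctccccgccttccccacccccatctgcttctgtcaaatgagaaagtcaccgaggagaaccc
MYCN: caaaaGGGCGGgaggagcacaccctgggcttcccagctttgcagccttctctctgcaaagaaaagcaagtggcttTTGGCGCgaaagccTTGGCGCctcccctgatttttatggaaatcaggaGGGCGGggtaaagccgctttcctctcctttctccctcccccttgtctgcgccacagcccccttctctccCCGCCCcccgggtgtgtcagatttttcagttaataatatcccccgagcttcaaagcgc
The SOX2 window had 68.8% G and C, more than 76.6% of the windows of equal length before 35114 RefSeq starts, and held 20 CpG dinucleotides. SOX21 and MYCN were near the median window (58% and 11 CpG), at 58.8% and 57.2% with 11 CpG each. On either strand, the GC box GGGCGG occurred 1 time before SOX2 and 3 times before MYCN, and 42.6% of windows held it. The CCAAT box occurred 1 time before SOX2 and 1 time before SOX21 (32.0% of windows). TATAAA occurred 1 time before SOX21 (10.7% of windows), 146 to 141 bases before the start and on the strand opposite to SOX21. That strand is the one of the neighbouring gene SOX21-AS1, described below. The octamer-like ATGCAAA occurred 1 time before SOX2 (3.94% of windows), and the E2F-like TTGGCGC 2 times before MYCN (2.56% of windows). The E-box CACGTG (6.35% of windows) and the SOX core AACAAT (8.98% of windows) were searched as well, and their letters are in none of the 3 windows. No match overlapped another.

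Library totals, in units of 1000000 reads, ran from 17.0 to 21.2, and the listed genes held 5.81% to 10.2% of them in the first table. A level is given in CPM, the reads of a gene scaled to 1000000 reads of the library total, and its mean ± SD is that of a line's 2 libraries (n = 2 throughout). A single read is close to 0.05 CPM, and a library at 0 reads allows up to 3 reads, or 0.141 to 0.177 CPM. Where both libraries of a line had 0 reads, a fold is given as a bound, with 3 reads over the line in place of 0. These floors and intervals cover counting error only. Nothing in the labels says whether the paired libraries stem from separate cultures, so p-values cover only the variation between them, which can be technical. In the libraries of SNU-1105, 66.8% of genes with at least 20 reads in the pair lay within 1.5-fold of each other, and in those of T98G 52.8%, against at least 81.7% in each other line. In 99.3% of the listed genes of the first table, mean FPKM lay 2-fold or more apart between a set of 3 lines (T98G, KALS-1, LN-18) and the remaining 5. KNS-42, LN-229 and SNU-1105 are all in the set of 5, with U-138MG and U-87MG.

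SOX2 was the most widely expressed of the 3 genes, and was high in KNS-42, LN-229 and SNU-1105. In KNS-42 the libraries held 15211 and 15999 reads, or 783 and 818 CPM, with a mean of 800 ± 24.8 CPM (SD, n = 2). In LN-229 they stood at 100.04 and 117.5 CPM (109 ± 12.4 CPM). The SNU-1105 libraries stood at 82.0 and 130.2 CPM (106 ± 34.1 CPM). Both KNS-42 libraries were above all 4 libraries of the other two lines, whereas the LN-229 libraries lay between those of SNU-1105. The KNS-42 mean was 7.36-fold that of LN-229 (6.66 to 8.18-fold over pairs of libraries) and 7.54-fold that of SNU-1105 (6.01 to 9.98-fold). LN-229 and SNU-1105 differed 1.03-fold in their means, with pairs of libraries from 0.768 to 1.43-fold, so their order lies within the spread of the libraries.

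Elsewhere SOX2 was low. KALS-1, the fourth line, had 53 and 42 reads, or 3.09 and 2.14 CPM (2.62 ± 0.672 CPM), above the floor but 40.5-fold under SNU-1105, 41.5-fold under LN-229 and 306-fold under KNS-42. Its libraries were above those of the remaining 4 lines. U-138MG had 9 and 4 reads, U-87MG 4 and 1, LN-18 0 and 4, and T98G 1 and 0. Both U-138MG libraries were above those of T98G, whereas LN-18 overlapped with each of the other 3, and U-87MG with T98G. At these counts the order of the last 4 lines could be told only in part. In bulk RNA, fewer expressing cells and less RNA per cell cannot be told apart. The lines with next to no SOX2 thus included both U-138MG and U-87MG, which are in the set of 5 with KNS-42, and LN-18 and T98G, which are not.

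SOX21 was confined to 2 of the 8 lines at more than 1 read per library. KNS-42 had 5684 and 5987 reads, or 293 and 306 CPM (299 ± 9.58 CPM). SNU-1105 had 112 and 171 reads, or 5.69 and 8.56 CPM (7.12 ± 2.03 CPM), which is 42.0-fold lower (34.2 to 53.8-fold over pairs of libraries). LN-229, with as much SOX2 as SNU-1105 within the spread, had 0 reads of SOX21 in both libraries. KNS-42 was thus at least 4061-fold and SNU-1105 at least 96.7-fold above LN-229. KALS-1 and T98G also had 0 reads in both libraries, and LN-18, U-138MG and U-87MG had 0 reads in the first and 1 in the second.

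MYCN was high in KNS-42 and low but measurable in LN-229, and had no read in SNU-1105. The KNS-42 libraries held 2896 and 3496 reads, or 149 and 179 CPM (164 ± 21.0 CPM). Those of LN-229 held 302 and 152 reads, or 14.4 and 7.72 CPM (11.0 ± 4.71 CPM). KNS-42 was 14.8-fold higher than LN-229 (10.4 to 23.2-fold over pairs of libraries), and the libraries of the 2 lines did not overlap. Against the 0 reads of SNU-1105, KNS-42 was at least 2167-fold and LN-229 at least 146-fold higher. T98G and U-87MG also had 0 reads in both libraries. LN-18 had 1 and 2 reads, KALS-1 0 and 1, and U-138MG 1 and 0.

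**Figure D1:**
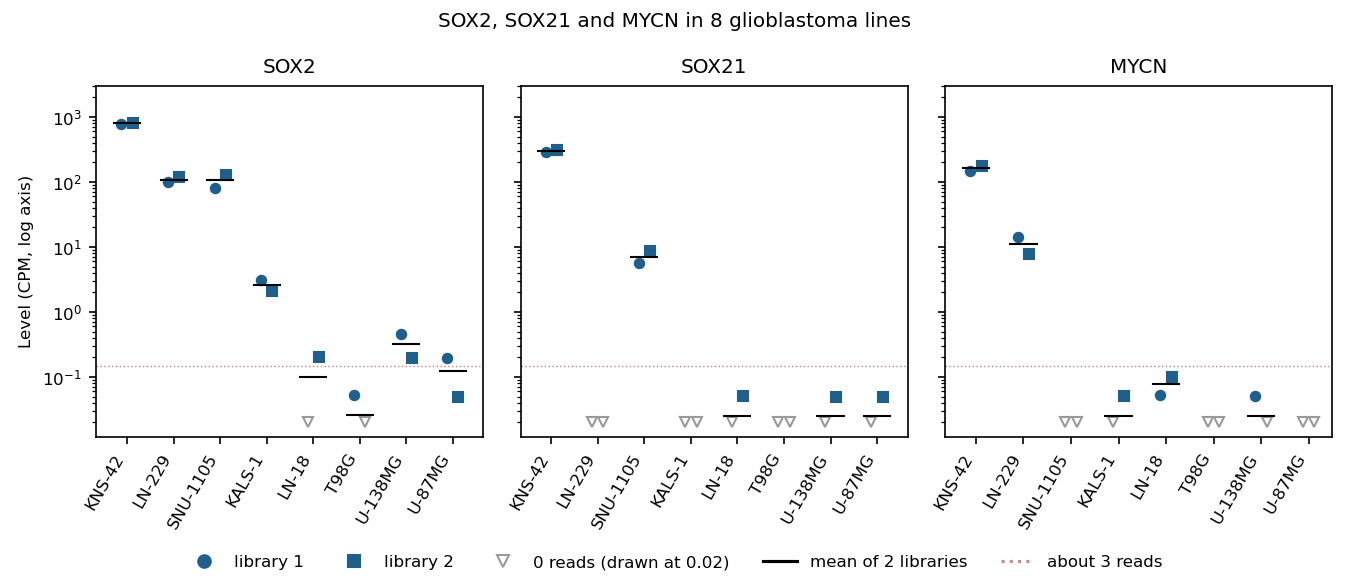
Level of SOX2, SOX21 and MYCN in each library of 8 glioblastoma lines, in CPM on a log axis, with circles for library 1, squares for library 2, a bar for the mean and open triangles for libraries with 0 reads, drawn at 0.02. KNS-42 is highest in each panel, LN-229 is at 0 reads for SOX21 and SNU-1105 is at 0 reads for MYCN.

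The 3 genes therefore did not fall along a single gradient. KNS-42 expressed all of them, LN-229 paired SOX2 with MYCN, and SNU-1105 paired SOX2 with SOX21. Each member was higher in KNS-42 than in LN-229 and SNU-1105 in every library. As background, 46.3% of the 2095 tested genes of the table were called different between KNS-42 and LN-229 (25.4% higher in KNS-42), 50.2% between KNS-42 and SNU-1105 (27.7% higher in KNS-42) and 44.6% between LN-229 and SNU-1105 (23% higher in LN-229). Calls needed a log2 fold change of 1 or more in size and an adjusted p (Benjamini-Hochberg) under 0.05 in the edgeR quasi-likelihood test. The members' levels in this table are given as a description, since the pattern over these lines was known when they were chosen.

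A complete absence of a gene that is high in KNS-42 was uncommon in the other two SOX2-expressing lines. Of 180 genes at 100 CPM or more in KNS-42, 3 had 0 reads in LN-229 (SOX21, MFAP5 and MMRN1) and 2 had 0 reads in SNU-1105 (MYCN and LINC02582). The same count was 8 in T98G, 5 in U-87MG and 3 in KALS-1, while LN-18 and U-138MG had 0. Between T98G, KALS-1 and LN-18 and the other 5 lines, 99.3% of listed genes lay 2-fold or more apart, which limits such comparisons. The SOX2 pattern, at least 10 CPM in KNS-42, LN-229 and SNU-1105 and under 10 CPM in each other line, was met by 11 of 2221 genes (0.495%), 5 of them highest in KNS-42. The MYCN pattern, at least 10 CPM in KNS-42 and LN-229 only, was met by 28 genes (1.26%). SOX21 fell with the 72 genes (3.24%) at 10 CPM or more in KNS-42 alone, since its SNU-1105 libraries (5.69 and 8.56 CPM) were under the cutoff. The cutoff lay between the LN-229 libraries of MYCN (14.4 and 7.72 CPM).

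Per length, SOX2 was the most abundant member wherever it was expressed. In FPKM, which divides reads by gene length and library total, SOX2 stood at 311.62 and 325.59 in KNS-42, SOX21 at 100.04 and 104.67, and MYCN at 54.1 and 64.87. These means ranked 7th, 22nd and 49th of the 2221 listed genes in that line. In LN-229 SOX2 ranked 68th (39.83 and 46.79 FPKM) and MYCN 467th (5.22 and 2.80 FPKM). SNU-1105 had SOX2 in rank 70 (32.63 and 51.84 FPKM) and SOX21 in rank 556 (1.95 and 2.93 FPKM). The ratio of SOX2 to SOX21 per length was 3.11 ± 0.00314 in KNS-42 and 17.2 ± 0.670 in SNU-1105. That of SOX2 to MYCN was 5.39 ± 0.524 in KNS-42 and 12.2 ± 6.41 in LN-229, where the libraries gave 7.63 and 16.7. SOX21 exceeded MYCN 1.73 ± 0.167-fold per length in KNS-42.

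The members varied between the libraries of a line to different degrees. In KNS-42 the libraries differed 1.04-fold for SOX2, 1.05-fold for SOX21 and 1.20-fold for MYCN. In SNU-1105 the second library was higher, 1.59-fold for SOX2 and 1.504-fold for SOX21, so that their ratio moved less than either level. In LN-229 the libraries moved apart in opposite directions, with SOX2 1.17-fold higher in the second and MYCN 1.86-fold higher in the first. What set the libraries of SNU-1105 apart was not tested.

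Each SOX locus carries a noncoding gene that had a row. SOX2-OT (ENSG00000242808), a long noncoding gene known as the SOX2 overlapping transcript, runs on the plus strand from 180989762 to 181836880 on chromosome 3, and SOX2 lies inside it on the same strand. SOX2-OT stood at 231 and 218 CPM in KNS-42 (224 ± 9.29 CPM), 18.3 and 20.8 CPM in LN-229 (19.5 ± 1.73 CPM) and 4.17 and 8.81 CPM in SNU-1105 (6.49 ± 3.28 CPM). Unlike SOX2, its order was KNS-42, LN-229, SNU-1105 with no overlap of libraries. KNS-42 exceeded LN-229 by a log2 fold change of 3.52 (SE 0.40, adjusted p = 4.7e-07) and SNU-1105 by 5.11 (SE 0.44, adjusted p = 9.66e-09). LN-229 exceeded SNU-1105 by 1.59 (SE 0.39, adjusted p = 0.00208), a call kept in 11 of 11 alternative analyses with adjusted p up to 0.0340. U-87MG followed at 1.08 ± 0.611 CPM from 31 and 13 reads, and the other 4 lines were at or under 0.365 CPM. Per length, SOX2-OT reached 2.15 ± 0.155% of SOX2 in KNS-42, 1.38 ± 0.0351% for LN-229 and 0.453 ± 0.0909% for SNU-1105. The exons of both genes share 0 bases in GENCODE 29, while no source used here names the annotation behind the deposited counts.

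SOX21-AS1 (ENSG00000227640) is the antisense gene beside SOX21. It runs on the plus strand from 94712716 to 94716246 on chromosome 13, 316 bases from SOX21 in GENCODE 29. The RefSeq starts of the 2 genes are 171 bases apart on opposite strands, so the SOX21 window printed above shares 170 bases with that of SOX21-AS1. KNS-42 had 64.0 and 68.9 CPM of SOX21-AS1 (66.4 ± 3.42 CPM), and SNU-1105 had 2.39 and 4.10 CPM (3.25 ± 1.21 CPM). LN-229 had 1 read in each library, and the other lines 0 to 2. It was thus present in the same pair of lines as SOX21. KNS-42 exceeded SNU-1105 by a log2 fold change of 4.35 (SE 0.34, adjusted p = 2.46e-08). Against the 2 reads of LN-229 the ratio of pooled reads was 1352 for KNS-42 (95% exact binomial interval 374 to 11174) and 66.2 for SNU-1105 (18.0 to 552). The edgeR test, run separately on the libraries, gave adjusted p = 2.83e-10 and 8.89e-07 for these pairs of lines. Its level per length was 13.3 ± 0.259% of SOX21 in KNS-42 and 26.9 ± 2.53% in SNU-1105. The lengths deposited for SOX21 and SOX21-AS1 (2924 and 4889 bases) exceed their exons in GENCODE 29 (2778 and 3287 bases), and whether counting used strand is not stated. Some reads of either gene could therefore belong to its partner. MYCN has a like partner, MYCNOS on the opposite strand, which shares 98 exon bases with it (3.77% of MYCN) and was not analysed here.

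**Figure D2:**
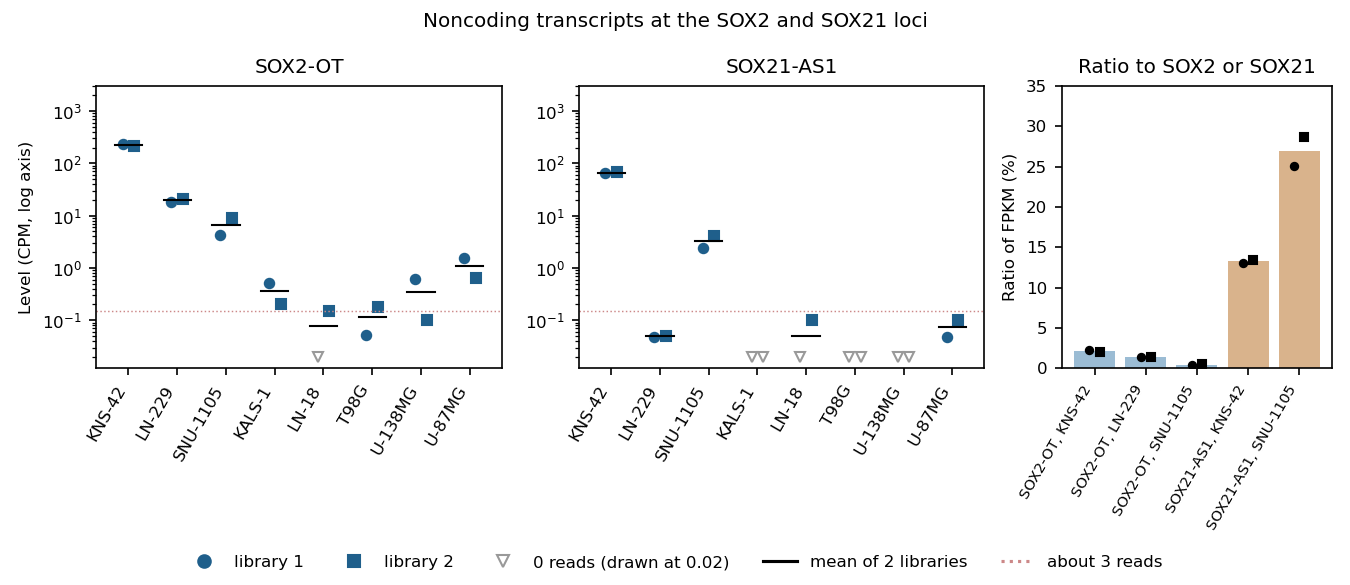
Left and centre, level of SOX2-OT and SOX21-AS1 in each library of 8 lines, in CPM on a log axis, with symbols as for the members. Right, their FPKM as a percentage of that of SOX2 or SOX21, with bars for the mean and points for the libraries, from 0.453% for SOX2-OT in SNU-1105 to 26.9% for SOX21-AS1 in SNU-1105.

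Apart from SOX2-OT, genes near the members could be compared at the SOX21 locus only. Within 1000000 bases, no gene near MYCN and only SOX2-OT near SOX2 had a row in the first table. Near SOX21 were GPC6, a glypican gene, and DCT, a pigment enzyme gene, besides SOX21-AS1. GPC6 was higher in LN-229 (105 CPM), where SOX21 was at 0 reads, than in KNS-42 (49.5 CPM), and highest in U-87MG (198 CPM). DCT was at or under 0.735 CPM in every line.

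The genes most like each member were found by Pearson's r of log2(CPM + 1) over the 8 line means, among 1180 genes with at least 10 CPM in some line. With only 8 points, r rests mainly on KNS-42, so it is a description and carries no p. SOX2 was most like DLX6 (r = 0.979) and, at 0.961, DLX5, 2 distal-less homeobox genes. Between them came the glycosyltransferase gene B4GALNT3 (0.978), the neural adhesion gene CHL1 (0.971) and the homeobox gene PROX1 (0.965). DLX6 stood at 35.03 CPM in KNS-42, 5.84 CPM in LN-229 and 7.01 CPM in SNU-1105, and CHL1 at 175, 68.1 and 15.8 CPM. SOX2-OT came below these 5, at 0.941.

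SOX21 was most like its neighbour SOX21-AS1 (r = 0.9995), with the limit on their reads given above. Next were CDO1, the cysteine dioxygenase gene (0.996), JAKMIP2-AS1 (0.988), the proteoglycan gene SPOCK2 (0.988) and the multimerin gene MMRN1 (0.984). SPOCK2 stood at 273 CPM in KNS-42, 19.3 CPM in SNU-1105 and 0.393 CPM in LN-229, and MMRN1 at 101 CPM, 12.04 CPM and 0 reads. MYCN was most like ITIH5, a gene of the inter-alpha-trypsin inhibitor family (r = 0.9997), KLHDC8A (0.999), the NMDA receptor subunit gene GRIN2B (0.999), ENSG00000286710 (0.996) and the axon guidance gene RGMA (0.993). ITIH5 stood at 440 CPM in KNS-42, 16.3 CPM in LN-229 and 0.0250 CPM in SNU-1105, and RGMA at 96.2, 16.2 and 0.05004 CPM. By Spearman's rank, 0 of the 5 genes for SOX2, 2 for SOX21 and 1 for MYCN were again among the nearest 5. The members themselves were less alike, with r = 0.791 for SOX2 and SOX21, 0.809 for SOX2 and MYCN and 0.800 for SOX21 and MYCN.

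**Figure D3:**
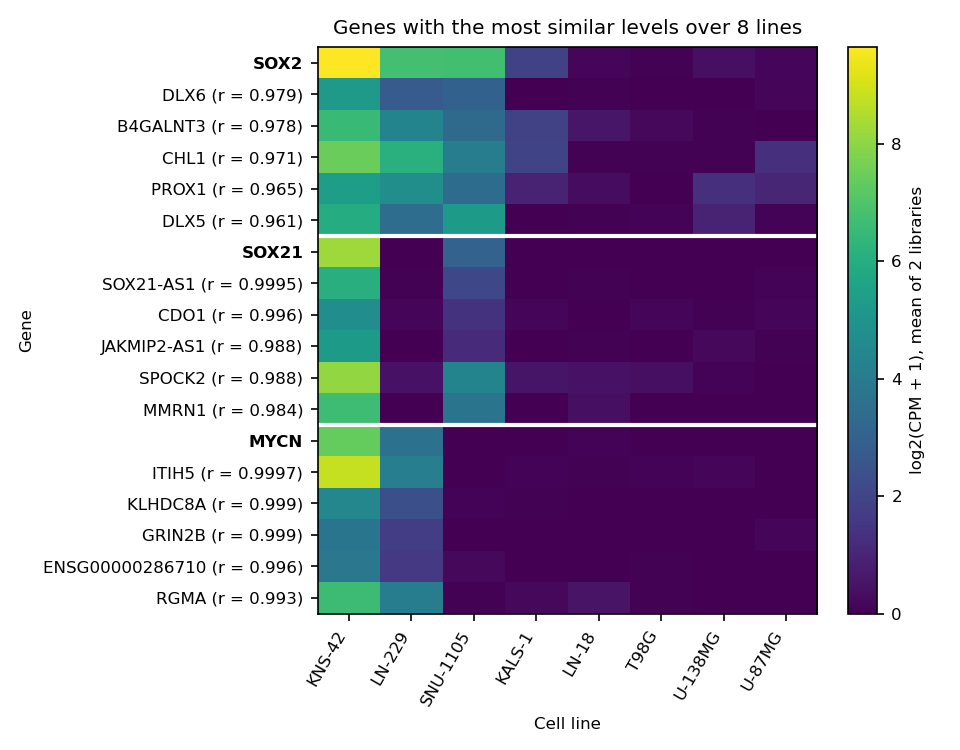
Line means of log2(CPM + 1) for SOX2, SOX21, MYCN and the 5 genes most like each, with lines in columns and colour for the level. The SOX2 block is filled in KNS-42, LN-229 and SNU-1105, the SOX21 block lacks LN-229 and the MYCN block lacks SNU-1105.

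Related genes were compared among the 3 SOX2-expressing lines by 7 lists, without the members. The median log2 fold change of all 2095 tested genes was 0.07 for KNS-42 against LN-229, 0.13 for KNS-42 against SNU-1105 and 0 for LN-229 against SNU-1105. Besides the 46.3%, 50.2% and 44.6% called in either direction, 20.9%, 22.5% and 21.7% of genes were called lower in the first line of each. These 3 comparisons share libraries pairwise. Most genes of the lists had no row in the table and were not analysed here.

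Beyond the members, the SOX family list had 4 tested genes, which are SOX2-OT, SOX21-AS1, SOX5 and SOX7. Of these, 3 were higher and 0 lower in KNS-42 than in LN-229 (median log2 fold change 3.05), 3 higher and 0 lower than in SNU-1105 (3.14), and 2 higher and 2 lower in LN-229 than in SNU-1105 (-0.59). SOX2-OT and SOX21-AS1 lie at the members' own loci, so these counts and medians are not independent of the pattern known when the members were chosen. SOX5, a factor without the activation domain of SOX2 that acts in neurons and glia, stood at 40.0 ± 0.574 CPM in KNS-42, 63.9 ± 10.7 CPM in LN-229 and 10.5 ± 4.81 CPM in SNU-1105. It was higher in KNS-42 than in SNU-1105 (log2 fold change 1.93, SE 0.30, adjusted p = 1.84e-05) and in LN-229 than in SNU-1105 (2.61, SE 0.30, adjusted p = 7.38e-07). Between KNS-42 and LN-229 it was not called (-0.68, SE 0.28, adjusted p = 0.0527). SOX7 stayed at or under 0.707 CPM, and its call for KNS-42 against LN-229 (log2 fold change 2.57) was lost without the second KNS-42 library (2.17) or the first LN-229 library (2.53).

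The neural stem and progenitor list had 3 genes with a row of 36, MSI2, FABP7 and SALL4. In KNS-42 2 were higher and 1 lower than in LN-229 (median 2.16), and 1 was higher and 0 lower than in SNU-1105 (median 0.00). In LN-229 1 was higher and 1 lower than in SNU-1105 (median -0.49). MSI2, which encodes the RNA-binding protein Musashi 2, stood at 671 ± 49.1 CPM in KNS-42, 96.6 ± 16.2 CPM in LN-229 and 136 ± 34.8 CPM in SNU-1105. KNS-42 exceeded LN-229 by a log2 fold change of 2.80 (SE 0.24, adjusted p = 1.08e-08) and SNU-1105 by 2.30 (SE 0.23, adjusted p = 1.01e-07). FABP7, the fatty acid binding gene of radial glia, went the other way. LN-229 had 103 ± 4.73 CPM, KNS-42 20.6 ± 12.1 CPM and SNU-1105 20.6 ± 11.7 CPM, and FABP7 was lower in KNS-42 than in LN-229 (-2.33, SE 0.41, adjusted p = 0.000179). SALL4 stayed at or under 0.908 CPM, and its call for KNS-42 against LN-229 (log2 fold change 2.16) was lost without the second library of KNS-42 (1.59) or of LN-229 (1.25).

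The MYC network list had 2 tested genes besides MYCN. MXD4, whose product pairs with MAX to repress MYC targets, stood at 115 ± 1.96 CPM in KNS-42, 34.6 ± 3.52 CPM in LN-229 and 77.4 ± 11.3 CPM in SNU-1105. It was higher in KNS-42 than in LN-229 (log2 fold change 1.73, SE 0.29, adjusted p = 5.11e-05) and lower in LN-229 than in SNU-1105 (-1.16, SE 0.29, adjusted p = 0.00221). ODC1, the ornithine decarboxylase gene known as a MYC target, stood at 283 ± 31.9, 152 ± 33.8 and 161 ± 30.0 CPM in the same order. It was called in none of the 3 comparisons, with log2 fold changes of 0.90 (adjusted p = 0.0245) and 0.82 (adjusted p = 0.0373) for KNS-42. It passed against LN-229 without the first KNS-42 library (1.01) or the second LN-229 library (1.15), and against SNU-1105 without the first library of that line (1.02). Of the list 1 gene was thus higher in KNS-42 than in LN-229 (median 1.32), 0 were called against SNU-1105 (median 0.69), and 1 was lower in LN-229 than in SNU-1105 (median -0.62).

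Among 5 tested Notch and Hedgehog genes, 1 was higher and 1 lower in KNS-42 than in LN-229 (median -0.25), 1 higher and 3 lower than in SNU-1105 (median -1.40), and 1 higher and 2 lower in LN-229 than in SNU-1105 (median -0.07). GLI2, the main activator of Hedgehog targets, stood at 93.7 ± 2.53 CPM in KNS-42, 46.1 ± 1.19 CPM in LN-229 and 11.9 ± 1.23 CPM in SNU-1105. Against SNU-1105 it was higher in KNS-42 (log2 fold change 2.97, SE 0.23, adjusted p = 2.36e-09) and in LN-229 (1.95, SE 0.22, adjusted p = 5.56e-07). Its call between KNS-42 and LN-229 (1.02, SE 0.21, adjusted p = 0.000438) came under the fold threshold in 5 of 11 alternative analyses, among them those without the second library of KNS-42 (0.996) or of LN-229 (0.998). NOTCH2, a Notch receptor, had the reverse order, at 223 ± 4.61, 302 ± 13.0 and 662 ± 45.7 CPM. GLI3 was called in none of the comparisons. HES4, the gene lower in KNS-42 than in LN-229, stood at 0.744, 1.99 and 1.97 CPM in KNS-42, LN-229 and SNU-1105. JAG2, lower in KNS-42 and LN-229 than in SNU-1105, stood at 0.385, 0.171 and 2.06 CPM. Their calls rest on low levels, and the median of -1.40 is the HES4 value.

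The neuronal list had 3 tested genes. In KNS-42 1 was higher and 1 lower than in LN-229 (median -0.21), and 3 were higher than in SNU-1105 (median 3.93). In LN-229 2 were higher and 1 lower than in SNU-1105 (median 4.14). GAP43, a growth cone gene, had 221 ± 32.7 CPM in KNS-42 and 7.18 ± 0.467 CPM in LN-229, a log2 fold change of 4.94 (SE 0.29, adjusted p = 7.66e-11). The synaptic vesicle gene SYT1 was at 2.29 ± 0.0110 CPM in SNU-1105, under KNS-42 by 3.93 on the log2 scale (SE 0.31, adjusted p = 3.19e-09) and under LN-229 by 4.14 (SE 0.31, adjusted p = 2.41e-09). CNTN1, an axonal contactin gene, had 0.925 ± 0.585 CPM in KNS-42, 8.91 ± 4.77 CPM in LN-229 and 0 reads in SNU-1105.

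All 5 tested astrocyte and oligodendrocyte genes differed between KNS-42 and LN-229, 3 higher and 2 lower in KNS-42 (median 4.30). Against SNU-1105, 3 were higher and 1 lower in KNS-42 (median 2.11), and 2 were higher and 2 lower in LN-229 (median 0.35). GJA1, the connexin 43 gene of astrocytes, reached 1034 ± 81.0 CPM in KNS-42 and, in SNU-1105, 953 ± 281 CPM, whereas LN-229 had 35.8 ± 0.943 CPM. PDGFRA, the platelet-derived growth factor receptor of oligodendrocyte progenitors, stood at 352 ± 39.2 CPM in KNS-42, 17.9 ± 3.07 CPM in LN-229 and 14.0 ± 1.04 CPM in SNU-1105. CSPG4, the NG2 proteoglycan gene of the same progenitors, was at 1.08 ± 0.213 CPM in KNS-42, under LN-229 (351 ± 125 CPM) by a log2 fold change of -8.34 (SE 0.38, adjusted p = 5.73e-12) and under SNU-1105 (94.1 ± 19.3 CPM) by -6.44 (SE 0.36, adjusted p = 3.48e-11). PTPRZ1, a receptor phosphatase of glial progenitors, stood at 134 ± 21.3, 319 ± 137.8 and 14.4 ± 11.7 CPM in KNS-42, LN-229 and SNU-1105, and its call between KNS-42 and LN-229 (-1.25) was lost in 3 of 11 alternative analyses, with -0.72 without the first LN-229 library and -1.09 without the second KNS-42 library. CLU, the clusterin gene, stood at 908 ± 87.8, 39.6 ± 5.98 and 210.4 ± 90.0 CPM.

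Of the mesenchymal list only 6 genes were tested. Among them, 1 was higher and 2 lower in KNS-42 than in LN-229 (median -0.11), 0 higher and 3 lower than in SNU-1105 (median -1.58), and 1 higher and 3 lower in LN-229 than in SNU-1105 (median -0.64). Of all tested genes, 20.9%, 22.5% and 21.7% were called lower in these comparisons. The fibronectin gene FN1 stood at 163 ± 21.8 CPM in KNS-42, 3196 ± 407 CPM in LN-229 and 11243 ± 872 CPM in SNU-1105. LN-229 and SNU-1105 differed in FN1 by a log2 fold change of -1.81 (SE 0.33, adjusted p = 0.000134). CHI3L1, a secreted chitinase-like gene, stood at 2.08 ± 1.497 CPM in KNS-42, 1 read in LN-229 and 455 ± 27.96 CPM in SNU-1105. The AP-1 gene FOSL1 stood at 28.1 ± 7.85, 364 ± 41.4 and 163 ± 99.9 CPM. Its call between LN-229 and SNU-1105 (log2 fold change 1.16) was lost without the second SNU-1105 library (0.64), as was that of the homeobox gene PRRX1 (-1.41, and -0.92 without it). The vimentin gene VIM, at 3357 to 4897 CPM, was called in none of the comparisons.

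**Figure D4:**
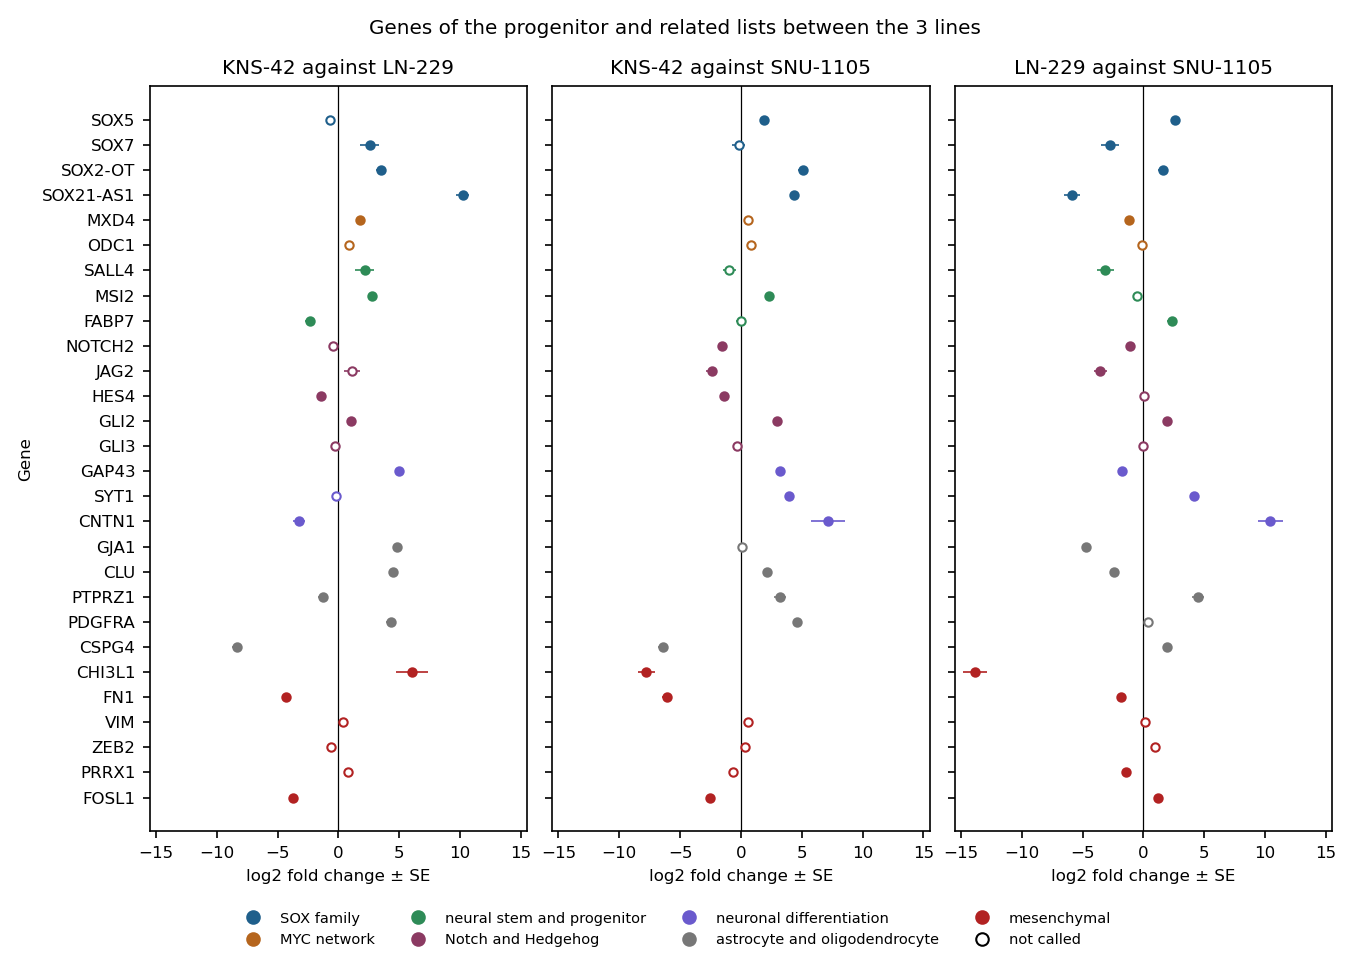
Log2 fold change ± SE of the tested genes of the 7 lists in the 3 comparisons among KNS-42, LN-229 and SNU-1105, with filled points for genes called by the edgeR test and colours for the lists. SOX2-OT lies to the right in all 3 panels, SOX21-AS1 changes sides where LN-229 is the first line, and FN1 lies to the left in all 3.

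Markers of other cell types differed among these lines. The 4 immune genes with rows (of 6) summed to 0.871 CPM in KNS-42, 1.03 CPM in LN-229 and 24.8 CPM in SNU-1105, where CSF1R alone gave 24.4 CPM, PTPRC had 8 reads and ITGAM 0. KDR, the only endothelial marker with a row (of 5), was at 0.103, 0.195 and 79.2 CPM. The 4 epithelial genes with rows (of 5) summed to 29.4, 69.7 and 31.5 CPM, mostly KRT18, with CDH1 at 0 reads in LN-229 and SNU-1105. No skeletal muscle marker had a row. Their part in the results was not tested.

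In the second table MYCN was low in all 3 lines. SNU-466 had 16 and 19 reads, or 0.943 and 0.968 CPM (0.956 ± 0.0171 CPM), AM-38 had 3 and 1 reads, and A-172 had 0 in both. SNU-466 was above both other lines in each library, and its level was under that of LN-229 in the first table, a comparison across tables that was not tested. It was at least 12.6-fold higher than A-172 (adjusted p = 1.13e-08, edgeR) and 9.97-fold higher than AM-38 (log2 fold change 3.22, SE 0.64, adjusted p = 3.54e-06, up to 0.0400 over the alternatives). These calls stand against a background of 84.7% of 5035 tested genes called between SNU-466 and A-172 (34.8% higher and 49.9% lower in SNU-466) and 91.7% between SNU-466 and AM-38 (40.1% higher and 51.6% lower), with median log2 fold changes of -1.28 and -1.23. Between A-172 and AM-38, where 48.6% of genes were called (24.1% higher and 24.5% lower in A-172), MYCN was near or under the floor in both lines. Its call there (adjusted p = 0.0446) was lost in 7 of 10 alternative analyses, those without either A-172 library or the first AM-38 library among them.

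SOX2-OT, which had a row here without SOX2, was likewise highest in SNU-466, at 9.55 and 11.5 CPM (10.5 ± 1.38 CPM), and had 4 and 4 reads in A-172 and 4 and 6 in AM-38. SNU-466 exceeded A-172 by a log2 fold change of 5.67 (SE 0.32, adjusted p = 6.23e-29) and AM-38 by 5.41 (SE 0.31, adjusted p = 5.89e-29). Of the 6 SOX family genes tested, 5 were higher and 1 lower in SNU-466 than in A-172 (median 7.04), and the same counts held against AM-38 (median 6.18). They are few genes of a table in which most differ for this line. SOX10, the glial and neural crest factor, stood at 640 and 678 CPM in SNU-466, with 1 read in A-172 and 4 in AM-38. SOX8, its relative, stood at 104 and 113 CPM, with 3 reads in A-172 and 0 in AM-38. SOX6 stood at 191 ± 7.09 CPM against 0.552 ± 0.201 and 1.54 ± 0.515 CPM. SOX4, a factor of progenitors and early neurons, stood at 365 ± 5.10 CPM in SNU-466, 60.4 ± 3.06 CPM in A-172 and, in AM-38, 14.5 ± 0.129 CPM. SOX9, which specifies astrocytes, was the gene that was lower, with 0.165 ± 0.0171 CPM in SNU-466. A-172 had 187 ± 2.87 CPM of it, and AM-38 264 ± 2.99 CPM. Markers of other cell types differed as well. The 2 epithelial genes with rows (of 5) summed to 1958 CPM in A-172, 292 CPM in AM-38 and 0.512 CPM in SNU-466. The 3 endothelial genes with rows (of 5) summed to 12.6, 6.33 and 0.0255 CPM, with CDH5 and TEK at 0 reads in SNU-466. The 3 immune genes with rows (of 6) summed to 5.97, 1.79 and 0.165 CPM, with ITGAM at 0 reads in SNU-466. Their part in the results of this table was not tested.

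Among MYC network genes, MYC itself was well above the floor in each of these lines. MYC, the founding gene of the MYC family, stood at 35.6 ± 2.00 CPM in SNU-466, 42.3 ± 3.80 CPM in A-172 and, in AM-38, 472 ± 7.87 CPM. It was lower in SNU-466 than in AM-38 (log2 fold change -3.73, SE 0.06, adjusted p = 1.6e-68) and not called against A-172 (-0.25). Of 9 tested genes of the list, MYCN included, 2 were higher and 4 lower in SNU-466 than in A-172 (median -0.25), and 4 higher and 5 lower than in AM-38 (median -1.58). ID2, an inhibitor of basic helix-loop-helix factors, was higher in SNU-466 (27.0 ± 1.48 CPM) than in A-172 (9.09 ± 0.112 CPM) or AM-38 (2.95 ± 0.234 CPM). MXI1, a MAX partner that opposes MYC, was lower there, at 6.81 ± 0.203 CPM against 19.9 ± 1.61 and 44.6 ± 1.40 CPM. DKC1, the dyskerin gene, was lower as well, at 44.9 ± 1.52 CPM against 110.6 ± 0.560 and 135 ± 7.28 CPM. ODC1, the first enzyme of polyamine synthesis, stood at 72.1 ± 0.111 CPM in SNU-466, 170.1 ± 4.01 CPM in A-172 and, in AM-38, 292 ± 4.20 CPM. Of 11 neural stem and progenitor genes, 4 were higher and 4 lower against A-172 (median 0.27), and 6 higher and 5 lower against AM-38 (median 1.18). Several calls against A-172 rest on low levels, in both directions. Higher in SNU-466 were OLIG1 (2.83 against 0 CPM), POU3F1 (1.09 against 0.201 CPM) and FABP7 (1.44 against 0.0512 CPM). Lower were PAX6 (0.114 against 1.00 CPM) and FUT4 (0 against 3.98 CPM). The POU3F1 call was kept in 9 of 10 alternative analyses. Of all tested genes, 34.8% were higher and 49.9% lower in SNU-466 than in A-172, and 40.1% and 51.6% against AM-38. The counts of both lists were not tested against those shares. The nestin gene NES stood at 469 ± 5.90 CPM in SNU-466, 328 ± 7.92 CPM in A-172 and, in AM-38, 134 ± 1.06 CPM, and was called higher against AM-38 but not against A-172. CD24, a surface marker of progenitors, stood at 0.220 ± 0.0227 CPM in SNU-466 against 21.7 ± 1.32 and 11.5 ± 0.140 CPM. ZIC2, a zinc finger factor of the neural plate, stood at 1.65 ± 0.171, 16.2 ± 1.98 and 8.32 ± 0.232 CPM in SNU-466, A-172 and AM-38. NFIB, a factor of glial progenitors, stood at 49.6 ± 0.511, 16.6 ± 1.54 and 21.8 ± 0.764 CPM, and the integrin gene ITGA6 at 612 ± 10.5, 507 ± 10.5 and 243 ± 5.11 CPM. The calls of NFIB and ITGA6 against AM-38 (log2 fold changes 1.18 and 1.34) were lost in 2 of 10 alternative analyses, and ITGA6 was not called against A-172 (0.27). Near the SOX21 locus, GPC6 was at 278 CPM in SNU-466, 5.29 CPM in A-172 and, in AM-38, 6.93 CPM.

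The remaining lists also held genes called in each direction, as did the tested genes as a whole. Of all tested genes, 34.8% were higher and 49.9% lower in SNU-466 than in A-172, and 40.1% and 51.6% against AM-38. No list was tested against these shares. Of 15 Notch and Hedgehog genes tested, 8 were higher and 5 lower in SNU-466 than in A-172 (median 1.01), and 10 higher and 4 lower than in AM-38 (median 1.60). Some of these calls were lost in up to 5 of 10 alternative analyses. GAS1, a Hedgehog co-receptor, stood at 72.5 ± 4.09, 3.85 ± 0.731 and 0.0958 ± 0.0645 CPM in SNU-466, A-172 and AM-38. In the other direction, NOTCH3 was lower in SNU-466 than in A-172 (0.765 against 109 CPM). HHIP was lower in SNU-466 than in AM-38 (0.0255 against 82.4 CPM). Of 12 neuronal genes, 6 were higher and 6 lower than in A-172 (median -0.68), and 6 higher and 5 lower than in AM-38 (median 0.31). The microtubule-associated gene MAP2 stood at 175 ± 1.98, 4.98 ± 1.01 and 4.53 ± 0.865 CPM in SNU-466, A-172 and AM-38. NEFL, of the same list, went the other way, at 0.0255, 403 and 38.6 CPM. Of 14 astrocyte and oligodendrocyte genes, 10 were higher and 3 lower in each comparison (medians 6.51 and 7.02). S100B stood at 1731 ± 0.458, 0.0496 ± 0.0701 and 1.47 ± 0.409 CPM, and MOG at 33.0, 0 and 0.0236 CPM. The genes lower in both comparisons were CLU (0.422, 525 and 54.0 CPM) and GLUL (0.0804, 85.2 and 84.6 CPM). BCAN was called lower only against A-172, and ALDH1L1 only against AM-38. Of 13 mesenchymal genes, 6 were higher and 5 lower than in A-172 (median -0.73), and 6 higher and 6 lower than in AM-38 (median -0.78). The collagen gene COL1A2 stood at 10209 ± 16.02, 122 ± 3.92 and 0.727 ± 0.105 CPM, and PRRX1 at 0.381 ± 0.0379, 22.5 ± 0.729 and 28.02 ± 0.626 CPM.

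**Figure D5:**
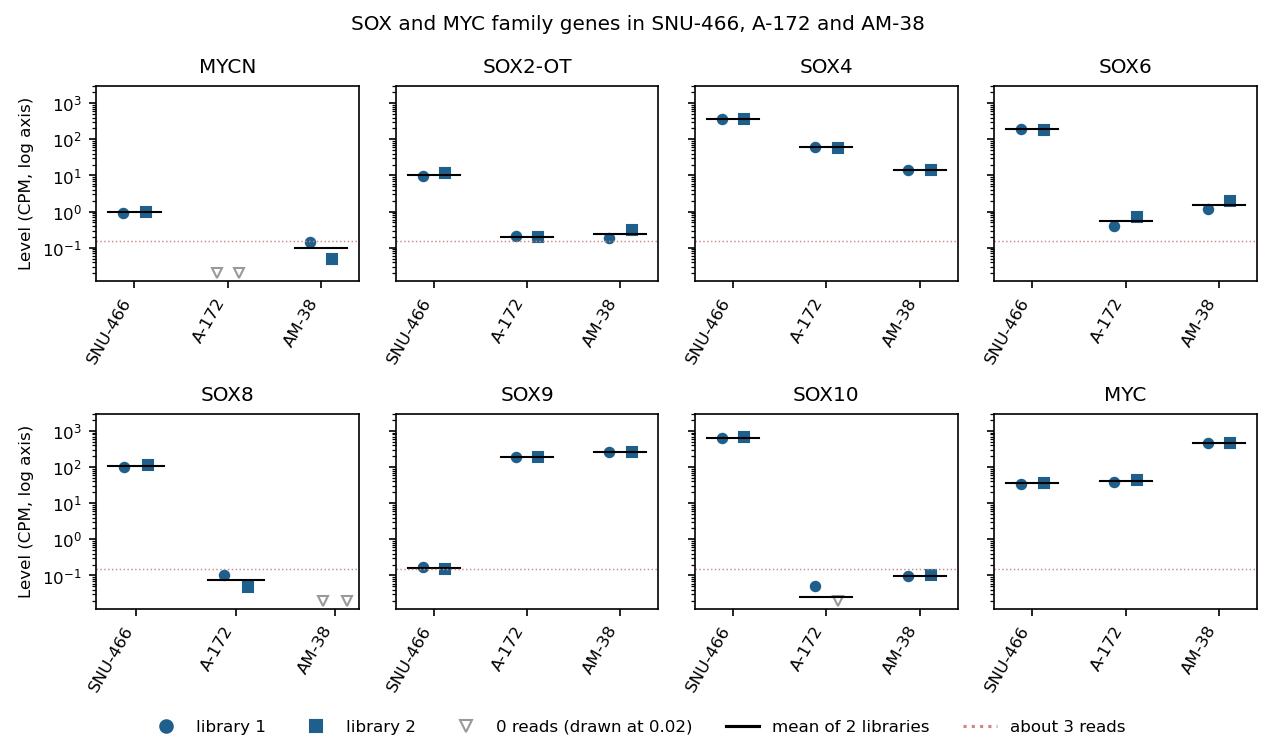
Level of MYCN, SOX2-OT, 5 SOX genes and MYC in each library of SNU-466, A-172 and AM-38, in CPM on a log axis, with symbols as for the members. MYCN and SOX2-OT are highest in SNU-466, SOX9 is lowest there, and MYC is highest in AM-38.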

How the data were processed

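Per gene and library, the authors deposited raw read counts, FPKM and a gene length. The submitters' processing notes name HISAT2 2.2.1, StringTie 1.3.3, HTSeq 0.6.0, FastQC 0.10.1 and cutadapt 1.9.1, and the build GRCh38, without roles. Libraries were strand-specific per the labels' protocols, and whether counting used strand is not stated. No source used here says why these genes were listed.

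Each library's total was worked back from counts, lengths and deposited FPKM from genes at or above 20 FPKM and 200 reads (deviation up to 0.0258%), and set the CPM scale and the library sizes. Symbols matched for 2220 of 2221 and 5382 of 5383 genes. Counts of each table were fitted with the edgeR 4.0.16 quasi-likelihood test with 1 coefficient per line after the low-count filter, adjusted over all tested genes; limma 3.58.1 and DESeq2 1.42.0 were alternatives, with TMM and RLE factors, no filter, a replicate block and each library left out. The scripts were tested on simulated data. Of each list, up to 4 called genes at 10 CPM or more with the largest changes per comparison were to be named, besides the loci's noncoding genes. In the second table, the Notch and Hedgehog, neuronal, astrocyte and oligodendrocyte, and mesenchymal lists are given by counts with a few of those genes each. Other genes named (SOX7, SALL4, GLI3, HES4, JAG2 and VIM, in the first table also ODC1 and CNTN1) were chosen after their values were seen. So were SOX4, OLIG1, POU3F1, FABP7, PAX6, FUT4, CLU, GLUL, BCAN and ALDH1L1 in the comparisons of SNU-466. The members and lists were chosen with earlier results of these data known. MYCNUT and MYCNOS were not analysed here, and 1 gene of the mesenchymal list is not reported here.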

Additional observations from a re-analysis of the deposited data

How the results depend on the processing

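Counts of called genes stayed within 1.5 times in every alternative run. KNS-42 against LN-229 gave 970 genes, 881 to 891 without 1 library, 889 to 990 in the others and 962 with the replicate block. KNS-42 against SNU-1105 gave 1052, 942 to 976, 954 to 1084 and 1038, and LN-229 against SNU-1105 gave 935, 834 to 898, 870 to 965 and 927. SNU-466 gave 4267, 4122 to 4302, 4010 to 4615 and 4235 against A-172, and 4619, 4561 to 4688, 4232 to 4965 and 4605 against AM-38. A-172 against AM-38 gave 2445, 2353 to 2381, 2210 to 2447 and 2408. No strong shift shared by replicate number was seen between lines. The correlation of replicate differences ran from -0.135 to 0.0925 over 28 pairs of lines in the first table. In the second it ran from -0.0453 to 0.0790 over 3 pairs. These values cannot show whether libraries of the same replicate number were handled together. Leaving out T98G was added after seeing the data. Of the other values, 3277 kept direction and call or stayed within the spread, 16 bounds moved by more, 19 fold changes gained a call, 14 in the first table and 56 in the second lost one, no called value reversed, and 6 counts of nearest genes shared between measures were under the main 5. The bounds against lines at 0 reads shrink when 1 of the 2 libraries is left out, because the floor then stands against fewer reads. With TMM or RLE factors the median log2 fold change of KNS-42 against SNU-1105 moved from 0.13 to 0.00. Scaling moved SNU-466 more. With RLE factors its median went from -1.28 to -1.59 against A-172 and from -1.23 to -1.74 against AM-38. Genes called higher in SNU-466 than in AM-38 went from 2020 to 1625. Listed genes held 37.1% of the reads of SNU-466 and 21.8% to 22.0% of those of A-172 and AM-38. Depth limits SOX2 in U-138MG, U-87MG, LN-18 and T98G, and MYCN in A-172 and AM-38, to a few reads.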
